A study of Mus musculus with 219 samples.

Results

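Blastomeres of early mouse embryos at the 2-cell stage were compared by how much Zscan4 transcript they held. The blastomeres were selected on the measured level itself. Of the 219 samples of the series, 110 were blastomeres from pairs in which both sisters had at least 9500 counted genes. In these, the shares of all counts (CPM, scaled to 1000000) of Zscan4b, Zscan4c, Zscan4d, Zscan4e and Zscan4f were added, the blastomeres of each of 2 plates were divided by this sum into 4 parts of like size, and the top and the bottom part were taken. This gave 27 Zscan4-high blastomeres from 19 embryos, 27 Zscan4-low blastomeres from 21 embryos, and 56 blastomeres between them.

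All embryos were of the genotype B6C3F1xCD1, from B6C3F1 oocytes that had received a CD1 sperm head by intracytoplasmic sperm injection (ICSI). The sperm head had been placed opposite the meiotic spindle (contralateral, 21 embryos kept), next to it (ipsilateral, named isolateral in the labels, 21 embryos) or midway (equatorial, 13 embryos). Embryos were grown in KSOM with amino acids and separated into sisters a and b, each lysed on its own, and no group was untreated. Zscan4-high and Zscan4-low blastomeres shared these steps except for the site of injection, as no equatorial blastomere was Zscan4-high. Each library is 1 blastomere, so a level here is a share of that cell's reads and not an amount of RNA per cell. Libraries held 360474 to 2100561 counts (median 1340425) and 9973 to 13228 counted genes, and 0 libraries had identical counts.

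Zscan4 is a family of nearly identical genes on mouse chromosome 7 that encode zinc finger proteins with a SCAN domain. In the mouse embryo they are transcribed in a burst during the 2-cell stage, as part of the activation of the zygotic genome, and in embryonic stem cells they switch on in a few cells at a time together with other genes of the 2-cell embryo. The protein is known for its part in telomere upkeep and genome stability, and the factor Dux is known to switch the genes on.

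The copies are close in sequence also before their start sites. The 250 bases before the start site are printed for the most counted copy and for 2 others (RefSeq, GRCm38.p6), each read along its own strand. Capitals mark the letters TGATTCAA, the first letters of the site known for Dux, and the letters TATAA.
Zscan4d, chr7:11166149-11166398, minus strand: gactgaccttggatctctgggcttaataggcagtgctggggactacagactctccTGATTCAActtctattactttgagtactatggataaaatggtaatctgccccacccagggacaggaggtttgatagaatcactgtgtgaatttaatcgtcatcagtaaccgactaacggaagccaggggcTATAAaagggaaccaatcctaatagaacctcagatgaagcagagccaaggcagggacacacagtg
Zscan4c, chr7:11005495-11005744, plus strand: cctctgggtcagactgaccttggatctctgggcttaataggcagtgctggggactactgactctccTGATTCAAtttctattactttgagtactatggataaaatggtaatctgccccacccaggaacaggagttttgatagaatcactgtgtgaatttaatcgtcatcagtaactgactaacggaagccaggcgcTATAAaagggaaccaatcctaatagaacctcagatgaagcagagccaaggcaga
Zscan4b, chr7:10905051-10905300, minus strand: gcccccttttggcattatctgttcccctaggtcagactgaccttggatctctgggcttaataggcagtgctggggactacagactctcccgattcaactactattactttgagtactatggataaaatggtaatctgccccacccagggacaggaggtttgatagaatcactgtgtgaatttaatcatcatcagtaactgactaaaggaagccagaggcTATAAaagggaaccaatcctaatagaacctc

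Laid over each other without gaps, Zscan4c and Zscan4d matched in 97.1% of 239 bases, Zscan4b and Zscan4d in 97.2% of 216 bases, and Zscan4c and Zscan4f in 99.6% of 227 bases. TGATTCAA stood in the Zscan4c, Zscan4d and Zscan4f stretches and in 0.577% of all 27025 promoters of this length, on either strand, and Zscan4b did not hold these letters. TATAA was in all 4 matched copies and in 23.5% of all promoters. In the transcripts of GENCODE M21, 65.03% of the 31-letter words of Zscan4d also occurred in another gene, as did 91.5% of those of Zscan4c, 91.7% of Zscan4f, 95.2% of Zscan4b and 93.7% of Zscan4e. A value for a single copy is therefore uncertain, and so is the order of the copies. Zscan4d, the most counted copy, also had the smallest shared part.

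On plate 1 the 21 Zscan4-high blastomeres had a summed level from 342 to 621 CPM (median 394) and the 21 Zscan4-low blastomeres from 7.82 to 120 CPM (median 62.04). On plate 2 the 6 Zscan4-high blastomeres had 410 to 679 CPM (median 485) and the 6 Zscan4-low blastomeres 107.9 to 182 CPM (median 147). These values chose the blastomeres and describe them only. Just outside the limits, the highest blastomere of the middle group had 340 CPM on plate 1 and 396 CPM on plate 2, and the lowest had 130.6 and 208 CPM. The limits thus did not fall at a gap on plate 1, and some Zscan4-low blastomeres of plate 2 would not have been low on plate 1.

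In the deposited table, every one of the 110 blastomeres had counts assigned to the family: Zscan4-low libraries held 7 to 286 counts (median 75) and Zscan4-high libraries 211 to 1326 (median 658). Zscan4d ranged from 215 to 453 CPM in Zscan4-high blastomeres (median 293) and from 6.70 to 152 CPM in Zscan4-low blastomeres (median 48.8). Zscan4c ranged from 37.8 to 130.8 CPM (median 62.7) against 0 to 40.7 CPM (median 11.5). Zscan4f had medians of 44.4 and 0.955 CPM. Zscan4b and Zscan4e were at 0 in 16 and 14 of the 27 Zscan4-low blastomeres, and Zscan4e also in 2 Zscan4-high blastomeres.

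**Figure D1:**
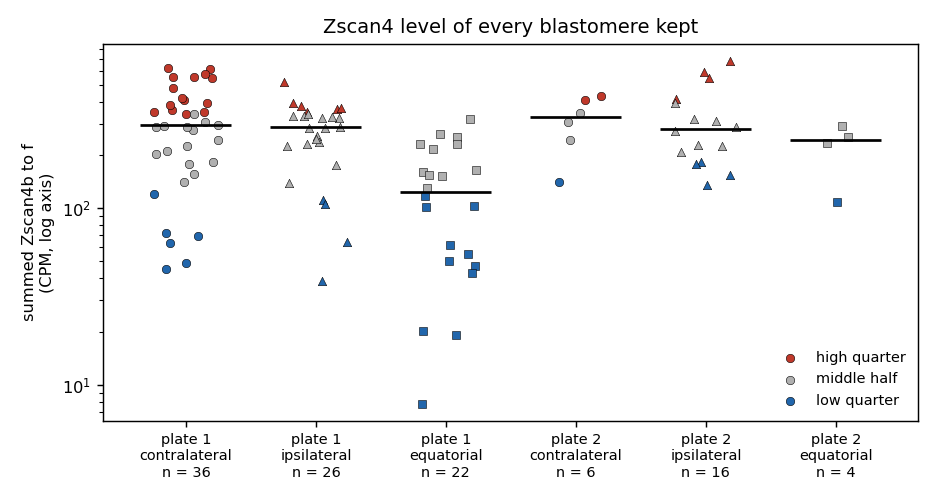
Summed CPM of Zscan4b to Zscan4f (log axis) in each of the 110 blastomeres, by plate and ICSI site, with bars at the medians. Red marks the top part of the plate, blue the bottom part and grey the rest, and no equatorial blastomere is red.

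The site of injection was not part of the rule, and it differed between the 2 ends. None of the 26 equatorial blastomeres was Zscan4-high, whereas 12 were Zscan4-low. Among 42 contralateral blastomeres, 17 were high and 7 low, and among 42 ipsilateral blastomeres 10 were high and 8 low. By embryo, the mean summed CPM of the sisters was 306 ± 146 (SD, n = 21) after contralateral, 289 ± 120 (SD, n = 21) after ipsilateral and 146 ± 85.5 (SD, n = 13) after equatorial injection. On the log2(CPM + 1) scale, centred by plate, contralateral embryos were 1.26 above equatorial embryos (2-sided permutation within plate, 100000 draws, p = 0.00111, adjusted over 3 pairs of sites 0.0031). Ipsilateral embryos were 1.07 above equatorial embryos (permutation p = 0.00207, adjusted 0.0031). The difference between contralateral and ipsilateral embryos, 0.0584, was within the spread (permutation p = 0.814). Plate 1 alone gave 1.39 and 1.32 for the comparisons with equatorial embryos (adjusted p = 0.00511 for both). Since site and Zscan4 level go together, site was a term in every comparison of genes between embryos. By the well labels, embryos of a site stood in blocks of neighbouring rows, so site and well position were not fully separate.

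Sisters tended to hold like levels of Zscan4. By the well labels sisters also lay in neighbouring wells, so being of the same embryo and being neighbours on the plate cannot be told apart. Of 55 embryos, 8 had both sisters high and 6 had both low. Another 11 had a high and a middle sister, 15 a low and a middle sister and 15 both in the middle. No embryo had a high and a low sister. The 14 embryos with sisters at the same end exceeded what re-pairing sisters within plates gave (2-sided permutation, 100000 draws, p = 0.00046). Re-pairing within plate and site, which keeps the difference between sites out, gave p = 0.00558, and without equatorial embryos the number was 10 of 42 (permutation p = 0.0145). With 3 parts of each plate in place of 4, 25 embryos had both sisters at the same end and 0 at opposite ends.

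Over the 55 embryos, the log2 levels of sisters a and b, centred by plate, had a Pearson r of 0.658 and a Spearman rho of 0.779. Both permutation p were 1e-05, the smallest that 100000 draws can give (2.33e-05 after adjustment over the 7 correlations computed). Without the 2 embryos farthest from the median of sister a, r was 0.678. The relation was found within contralateral embryos (r = 0.744, rho = 0.716, adjusted permutation p = 0.000525 and 0.00126, r = 0.652 without the 2 farthest) and ipsilateral embryos (r = 0.624, rho = 0.643, adjusted permutation p = 0.00314 and 0.00298). In ipsilateral embryos r was 0.415 without the 2 farthest. In the 13 equatorial embryos r was 0.391 and rho 0.560 (adjusted permutation p = 0.226 and 0.0717), and in the 13 embryos of plate 2 r was 0.504 and rho 0.516 (adjusted permutation p = 0.0908 and 0.0731). Plate 1 alone gave r = 0.672.

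Sisters were alike but not equal. The sister with more Zscan4 had 1.02 to 6.79 times the level of the other (median 1.43), and in 14 of 55 embryos the ratio was over 2.

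**Figure D2:**
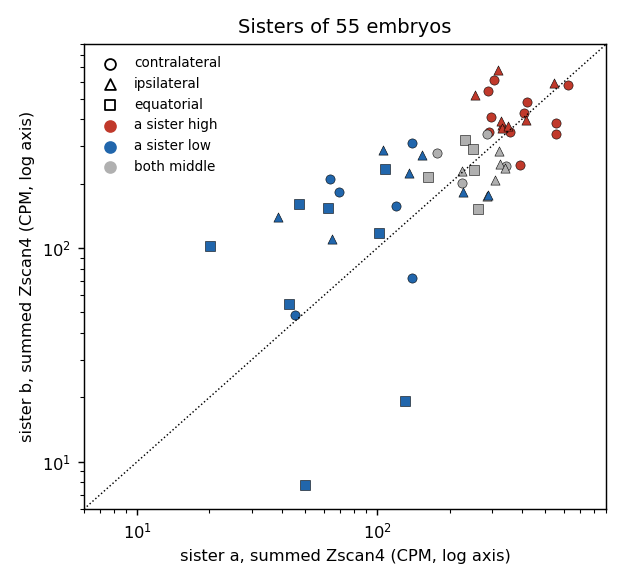
Summed Zscan4 CPM of sister a and sister b in 55 embryos (both axes log, dotted line at equal levels), with the site as symbol. Red embryos have a Zscan4-high sister and blue embryos a Zscan4-low one, and no embryo has both.

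To ask which other genes differ, the counts of an embryo's blastomeres at the same end were added, giving 19 Zscan4-high embryos (11 contralateral, 8 ipsilateral) and 21 Zscan4-low embryos (6 contralateral, 7 ipsilateral, 8 equatorial). No embryo had to be left out. Of 9820 genes tested outside the Zscan4 family (edgeR quasi-likelihood test with plate and site as terms, Benjamini-Hochberg adjusted p under 0.05), 258 were higher and 270 lower in Zscan4-high embryos, 2.63% and 2.75% of the genes tested and 5.38% in all. Genes of the 2-cell activation programme and of the Obox family were among those that were higher, and Bri3, Ddb1 and E2f1 among those that were lower. The median log2 fold of all genes was 0.01. The CPM ranges, medians and overlaps given below are over all 21 Zscan4-low embryos, 8 of them equatorial, and are not adjusted for site. The folds have site as a term, and no Zscan4-high embryo was equatorial. They therefore rest on the 19 high and the 13 low embryos of the other sites. Equatorial embryos enter the folds only indirectly, through the plate term and the spread. Without equatorial embryos the low median of Cenpn was 462 CPM (406 with them). That of Gm13078 was 81.4 CPM (98.8 with them).

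Depth, mitochondrial share and base composition of the libraries moved with the level. Zscan4-high embryos had more counts per blastomere (mean 1416030 against 1183090), more counted genes (12121 against 11379) and a larger mitochondrial share (1.68% against 1.35%), with permutation p adjusted over the 3 measures of 0.00919, 0.00234 and 0.0218. With the total count (log scale), counted genes and mitochondrial share of each embryo's added counts as terms, 66 genes were higher and 79 lower. Of these, 63 and 76 were among the calls above. The added counts came from both sisters in 8 of 19 Zscan4-high and 6 of 21 Zscan4-low embryos. These terms are therefore not the means per blastomere given before. The mean GC content of the counted genes, weighted by counts, was 45.9% to 46.8% in Zscan4-high embryos (median 46.5%) and 46.5% to 47.4% in Zscan4-low embryos (median 47.1%). The genes called higher had a median GC of 43.4% in their longest transcript, those called lower 53.1% and those not called 48.1%. With this GC value, itself computed from the same counts, as a term, 6 genes were higher and 8 lower, of which 5 and 4 were among the calls above. What part depth or GC has in the differences was not tested. Without equatorial embryos the counts were 327 and 260, sharing 245 and 242 with those above.

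**Figure D3:**
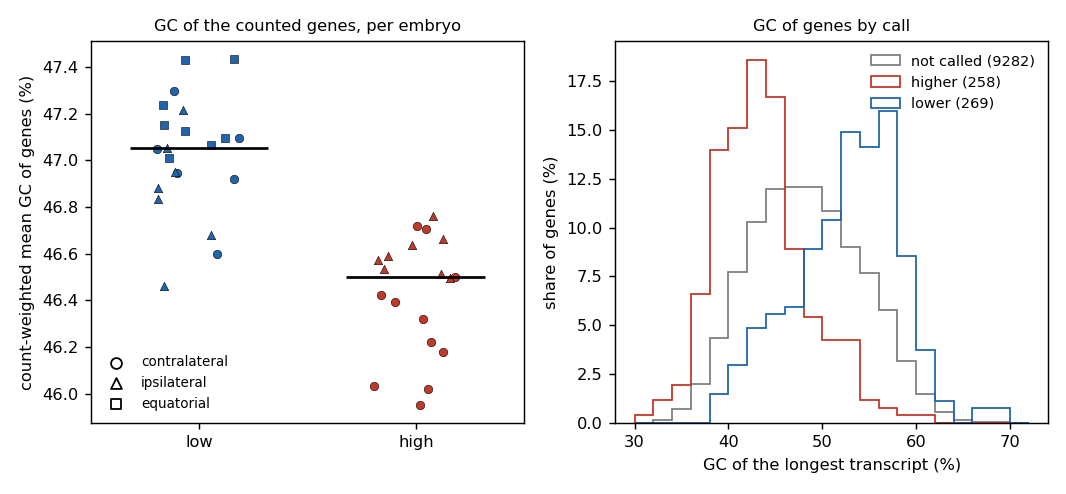
Left, count-weighted mean GC of the counted genes in each of 21 Zscan4-low and 19 Zscan4-high embryos, with bars at the medians of 47.1% and 46.5%. Right, GC of the longest transcript of genes called higher (red, median 43.4%), lower (blue, 53.1%) and not called (grey, 48.1%).

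Of the 30 genes named by rank, 15 in each direction, Gm2016 was the only one whose groups did not overlap. These genes were picked for their small p, and the share of all genes tested without overlap is not given. How unusual such a separation is can therefore not be judged. The low group also holds equatorial embryos, which the high group lacks, and the ranges are not adjusted for site. Gm2016 is a predicted gene on chromosome 12. It had 97.5 to 246 CPM in Zscan4-high embryos (median 144) and 18.3 to 76.5 CPM in Zscan4-low embryos (median 41.1). All 19 high embryos lay above all 21 low embryos, with a log2 fold of 1.49 ± 0.20 (SE; edgeR adjusted p = 2.8e-06). The 15 embryos with both sisters in the middle, which entered neither group, had 49.5 to 166 CPM (median 77.9). Gm2016 was also higher with the depth terms (1.35) and with the GC term (1.20, edgeR adjusted p = 0.0202).

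Gm5662, a second predicted gene of that chromosome, had 167 to 427 CPM (median 274) against 17.6 to 221 CPM (median 108.96). As many as 16 of 19 high embryos lay above the highest low embryo, and the log2 fold was 1.16 ± 0.20 (edgeR adjusted p = 0.000244). Gm5039 had 192 to 575 CPM (median 341) against 39.6 to 221 CPM (median 116.6), a log2 fold of 1.59 ± 0.22 (edgeR adjusted p = 4e-06). Gm21319 was less even, at 7.32 to 252 CPM (median 56.3) against 0.663 to 58.5 CPM (median 9.35), a log2 fold of 2.88 ± 0.51 (edgeR adjusted p = 0.000358). Gm8300 had medians of 452 and 205 CPM and a log2 fold of 1.05 ± 0.22 (edgeR adjusted p = 0.00358). In the transcript sequences, 83.99% of the 31-letter words of Gm2016 occurred in Gm5662, so reads may fit both genes. The separate values of this pair are therefore uncertain. Gm21319 shared 11.02% with its closest relative, Gm5039.

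These 5 genes lie close together on GRCm38 chromosome 12, between 87514316 and 88324026. The stretch was picked after their values were seen. GENCODE M21 places 20 genes of the count table inside it, of which 15 were tested. All 15 had a log2 fold above 0, with a median of 1.49 (0.01 over all genes tested). Of them 9 were called higher, where 2.63% of all genes were. The 5 genes that defined the stretch are among these, so the choice itself raises the count and the median. The share of all genes with a log2 fold above 0 was not counted. Beside the 5, the called genes were Gm2022 (1.58 ± 0.48), Gm2035 (1.62 ± 0.48), Gm2056 (2.03 ± 0.61) and Gm10436 (0.31 ± 0.09). Oog1, an oocyte gene in the same stretch, had a log2 fold of 0.02 ± 0.12.

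**Figure D4:**
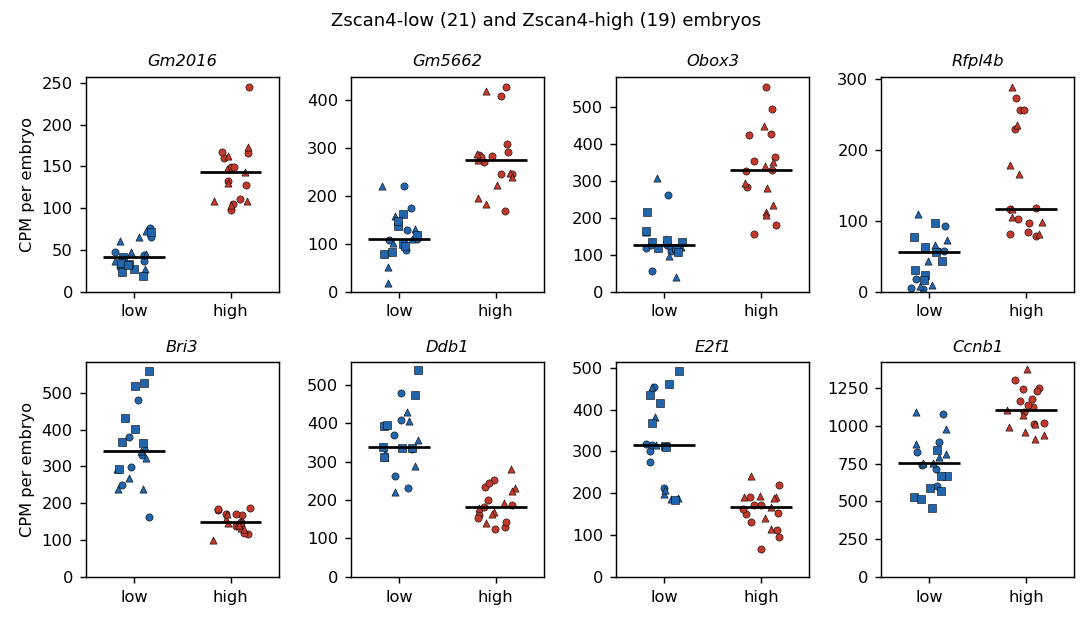
CPM of 8 genes in each Zscan4-low (blue, 21) and Zscan4-high (red, 19) embryo, with bars at the medians and the site as symbol (circle contralateral, triangle ipsilateral, square equatorial). The groups do not overlap for Gm2016 and overlap for the other 7 genes.

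Obox3, a homeobox gene of the oocyte and early embryo, had 156 to 554 CPM in Zscan4-high embryos (median 329) and 40.01 to 307 CPM in Zscan4-low embryos (median 125.8). Its log2 fold was 1.26 ± 0.20 (edgeR adjusted p = 0.000121), and 11 of 19 high embryos lay above the highest low embryo. Obox1 (0.60 ± 0.16, edgeR adjusted p = 0.0163) and Obox2 (0.79 ± 0.24, edgeR adjusted p = 0.0441) were also higher. Of the transcript words counted as above, 65.78% of those of Obox1 occurred in Obox2 and 73.13% of those of Obox2 in Obox1. Reads may therefore fit both genes, so their separate values are uncertain and their calls need not be independent. In all, 3 of 7 Obox genes tested were higher and 0 lower, where 2.63% and 2.75% of all genes were, with a median log2 fold of 0.64 (0.15 with the GC term). Obox5, at 0.20 ± 0.09, did not pass the test. With the depth terms 1 of the 7 was called, and with the GC term 0.

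Rfpl4b, a gene of the ret finger protein-like family, had 78.0 to 288 CPM (median 116.4) against 4.29 to 109.45 CPM (median 56.3), a log2 fold of 1.94 ± 0.35 (edgeR adjusted p = 0.000399). Only 3 low embryos reached above the lowest high embryo. Gm13078, which RefSeq lists as a member of the PRAME family, had medians of 186 and 98.8 CPM (1.04 ± 0.19) and Gm11487 122.4 and 39.1 CPM (1.48 ± 0.27). The 31-letter words of Gm11487 occurred elsewhere in 61.96% of cases. The noncoding RNA A730082K24Rik had medians of 434 and 195 CPM (0.92 ± 0.17), and 4931428L18Rik 397 and 197 CPM (0.84 ± 0.13).

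Among better known genes, Med31, a subunit of Mediator, had medians of 188 and 98.9 CPM (0.81 ± 0.15). Brix1, which acts in the assembly of the large ribosomal subunit, had 313 and 188 CPM (0.84 ± 0.15). Cenpn, which binds the centromeric nucleosome, had 703 and 406 CPM (0.67 ± 0.12), Slbp, which binds the stem-loop of histone mRNA, 881 and 549 CPM (0.55 ± 0.11), and Nlrp9c, an oocyte gene of the NLR family, 951 and 558 CPM (0.55 ± 0.10). The edgeR adjusted p of these 5 genes lay between 0.000399 and 0.000813. All were also called with the depth terms and none with the GC term.

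The 2-cell activation list, chosen like the other lists with earlier results of these data known, held 36 genes, of which 32 were tested. Of these 9 were higher and 0 lower, where 2.63% and 2.75% of all genes were, with a median log2 fold of 0.64 (0.93 with the GC term). Beside Gm2016, Gm5662, Gm8300 and Gm2022 these were Usp17lb (1.64 ± 0.35) and Usp17la (1.53 ± 0.42), deubiquitinase genes of the Usp17 cluster, Tdpoz3 (2.75 ± 0.70), Gm12794 (2.45 ± 0.75) and Arg2 (1.20 ± 0.34), an arginase. Usp17lb ranged from 56.1 to 305 CPM (median 160) against 0 to 173 CPM (median 45.4). Other well-known genes of the programme did not pass: Zfp352 had 0.34 ± 0.13, Tcstv1 0.18 ± 0.20, Tcstv3 -0.04 ± 0.16 and Usp17lc -0.03 ± 0.28. With the depth terms 5 members were called higher, with the GC term 2 (Gm2016 and Usp17lb), and without equatorial embryos 11. Gm2016, Gm5662, Gm8300 and Gm2022 also lie in the chromosome 12 stretch, so the counts of list and stretch share these genes.

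Bri3, a small membrane protein of lysosomes, was the named gene with the smallest p among those that were lower. It had 100.8 to 186 CPM in Zscan4-high embryos (median 149) and 163 to 559 CPM in Zscan4-low embryos (median 342), and a single low embryo overlapped the high range on the plot of genes by embryo. The log2 fold was -0.999 ± 0.12 (edgeR adjusted p = 4.2e-07), and -0.88 with the GC term (edgeR adjusted p = 0.00866). Gm42418, a noncoding RNA, had 197 to 545 CPM (median 248) against 246 to 1491 CPM (median 808), a log2 fold of -1.40 ± 0.17 (edgeR adjusted p = 4.2e-07). It overlaps ribosomal RNA sequence, so its counts need not be those of a messenger.

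Ddb1, the adaptor of CUL4 ubiquitin ligases, had 125.2 to 281 CPM (median 183) against 222 to 538 CPM (median 339), a log2 fold of -0.78 ± 0.11 (edgeR adjusted p = 1.44e-05). In all, 13 of 19 high embryos were below the lowest low embryo. E2f1, a transcription factor of S phase entry, had medians of 167 and 315 CPM (-0.88 ± 0.15). Zfp91 had medians of 205 and 442 CPM (-0.97 ± 0.14), Fam241b 312 and 531 CPM (-0.68 ± 0.10) and Ints3, a subunit of Integrator, 29.6 and 91.1 CPM (-1.55 ± 0.25). Ppp1r10, a nuclear partner of protein phosphatase, had -0.76 ± 0.13, Sap30l, of the Sin3 complex, -0.74 ± 0.13 and Anp32b, a histone chaperone, -0.67 ± 0.11. Ptov1, Smco4, Cdv3, Ptp4a2 and Psmd3, a regulatory subunit of the proteasome, fell by 0.72, 0.91, 0.61, 0.46 and 0.86 on the log2 scale. All 15 named lower genes were also lower with the depth terms, and 3 of them (Bri3, Gm42418 and Fam241b) with the GC term.

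For each of these 30 genes, the median of the 15 embryos with both sisters in the middle lay between the medians of the high and the low group. This was so for 97.5% of the 528 genes called, 55.5% of the genes tested and 53.1% of the genes not called. Bri3, for instance, had a median of 189 CPM in the middle embryos. Genes were called for a difference between the high and the low group, which by itself makes a median between them likely. Genes not called were not chosen for such a difference and are no fair background. The shares therefore cannot show whether levels are graded with Zscan4.

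Over all genes tested, 2.63% were higher and 2.75% lower, and the counts of the lists that follow stand beside these shares. The lists were chosen with earlier results of these data known, so a count above these shares is no separate support. Of 24 replication licensing and S phase genes, 5 were higher, namely Orc4 (0.98 ± 0.26), Orc1 (0.63 ± 0.19) and Orc6 (0.38 ± 0.11) of the origin recognition complex, the sliding clamp Pcna (0.61 ± 0.16) and the cyclin Ccne2 (0.54 ± 0.16). The licensing factor Cdt1 (-0.70 ± 0.20) and the kinase activator Dbf4 (-0.23 ± 0.07) were lower. The median of the list was 0.02. Of 26 mitotic regulators, the mitotic cyclin Ccnb1 and the spindle checkpoint gene Mad2l1 were higher (0.41 ± 0.09 and 0.62 ± 0.14). Ccnb1 had 912 to 1375 CPM (median 1107) against 459 to 1091 CPM (median 752). Ccnb1 and Mad2l1 were called with the depth terms too, and no replication gene was.

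Of 16 genes of transcription by RNA polymerase II, the basal factors Tbp (1.28 ± 0.28), Gtf2b (0.79 ± 0.19) and Tbpl2 (2.18 ± 0.69) were higher, and the remodeller Smarca4 (-0.80 ± 0.20) and the elongation factor Supt5 (-0.74 ± 0.23) were among those lower. Tbp had 76.2 to 318 CPM (median 176) against 2.48 to 147 CPM (median 57.04). Of 26 chromatin and DNA methylation genes, 0 were higher, and Dnmt1 (-0.84 ± 0.21), Dnmt3a (-0.60 ± 0.15) and the H3K27 demethylase gene Kdm6b (-0.78 ± 0.18) were lower. Their median was -0.28, and -0.0098 with the GC term. Among 15 early transcription factors, Yap1 (-0.49 ± 0.11) and Pou5f1 (-0.56 ± 0.16) were lower and 0 higher. With the depth terms 0 of the 16 transcription genes were called. Of the chromatin genes 0 were then higher and 1 lower, and of the early transcription factors also 0 higher and 1 lower.

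Of the telomere genes, chosen for the known role of Zscan4, the telomere-binding genes Rif1, Terf1 and Terf2 had log2 folds of -0.15 ± 0.07, -0.09 ± 0.30 and 0.04 ± 0.51, and none of these 3 passed the test.

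Of 23 genes of maternal mRNA storage and decay, the deadenylase gene Cnot7 (0.48 ± 0.11) and the RNA-binding gene Dazl (0.54 ± 0.15) were higher, and Lsm14b (-0.82 ± 0.19), Ybx2 (-0.57 ± 0.13) and Pan3 (-0.33 ± 0.09) were lower. H1foo, the linker histone of the oocyte, was higher (0.38 ± 0.11) among 19 zona and oocyte genes, and Zbed3 lower (-0.36 ± 0.08) among 8 genes of the subcortical maternal complex. Of 30 translation initiation genes, Eif2s1 (0.83 ± 0.23) and Eif4e (0.42 ± 0.11) were higher and the oocyte form Eif4e1b (-0.71 ± 0.18) and Eif5b (-0.41 ± 0.12) lower. Of 89 genes with Rpl or Rps symbols, which hold 6 that are not ribosomal proteins (Rps19bp1, Rps6ka1, Rps6ka3, Rps6ka5, Rps6ka6 and Rps6kb1), Rplp1, Rps12 and Rpsa were lower and 0 higher, a share near that of all genes. Of 30 proteasome genes Psma2 was higher (0.75 ± 0.17) and Psmd3 lower, and of 33 genes of the nucleolus Nip7 was higher (0.43 ± 0.13) and Fbl lower (-0.92 ± 0.25), again shares near those of all genes. None of 17 heat shock genes and none of 12 p53 and stress genes passed. With the depth terms 0 genes of translation initiation, 0 zona and oocyte genes and 0 genes of the nucleolus were called. Of the maternal mRNA genes 1 was then higher and 3 lower. The subcortical, the Rpl and Rps, and the proteasome lists each had 0 higher and 1 lower. Among 13 mitochondrially encoded genes mt-Atp8 was higher (0.71 ± 0.22), and with the GC term its log2 fold was -0.21. With that term 0 of the 13 were higher and 4 lower (mt-Nd3, mt-Co2, mt-Nd6 and mt-Nd4), where 8 of all 9820 genes were lower. The median of the list was 0.10 without and -0.41 with the GC term. With the depth terms, which hold the mitochondrial share, 2 of the 13 were higher and 1 lower.

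**Figure D5:**
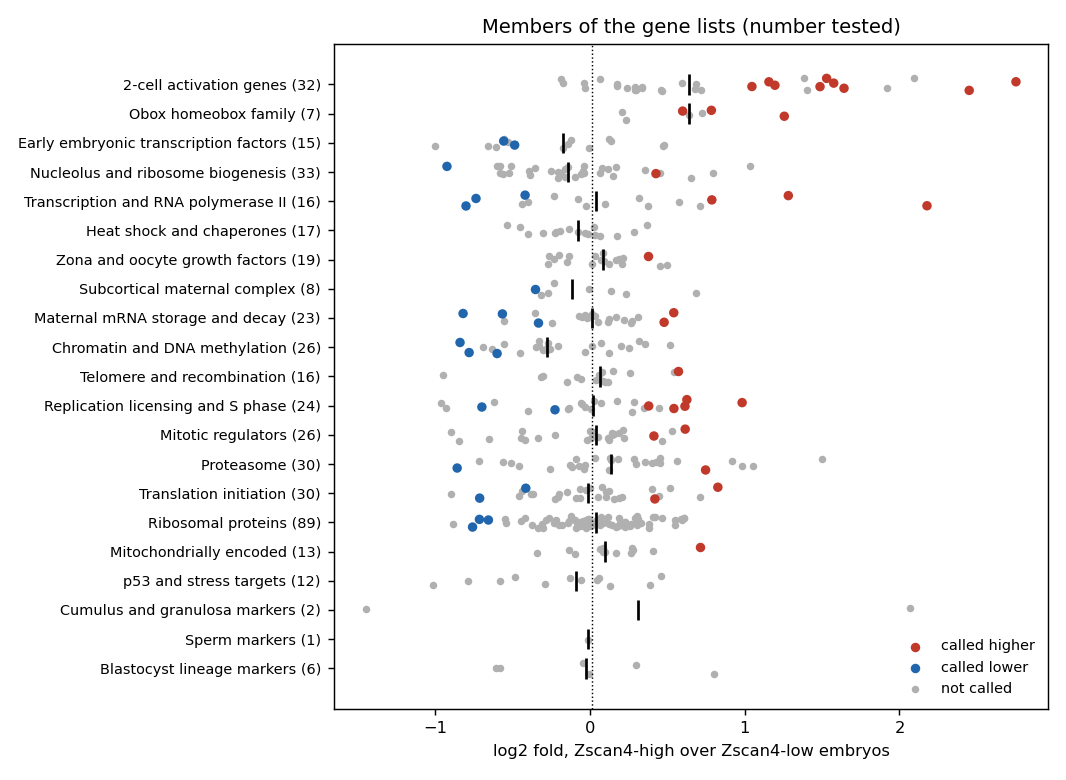
Log2 fold between Zscan4-high and Zscan4-low embryos for the tested members of 21 gene lists, with bars at each list's median and a dotted line at the median of all genes (0.01). The 2-cell activation and Obox lists have medians of 0.64 and the chromatin list -0.28, which with the GC term (not drawn) are 0.93, 0.15 and -0.0098.

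No marker of other cells was called. Of 15 cumulus and granulosa markers 2 passed the filter on low counts and 0 were called. Their summed level was 10.2 to 69.4 CPM in Zscan4-high and 6.20 to 88.996 CPM in Zscan4-low embryos, and 2 of the 15 were at 0 in all libraries. Of 9 sperm markers 1 passed the filter, Odf2, with medians of 270.5 and 277 CPM. These counts do not by themselves show sperm transcript, and their source was not tested. Of 12 blastocyst lineage markers 6 passed and 0 were called (summed level 76.6 to 316 CPM and 63.5 to 326 CPM).

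Contralateral and ipsilateral embryos could be set against each other for the size of the difference. The interaction of site and Zscan4 level called 0 of 10119 genes (edgeR). At an unadjusted p under 0.05, the log2 fold of high over low was more positive in ipsilateral embryos for 182 genes and more negative for 219. About 1 gene in 20 reaches such a p where nothing differs, so these numbers are by themselves no sign of a difference. No other tool was run for the interaction.

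The rule reads Zscan4 and all other genes from the same library. A check that does not is to group embryos by 1 sister and read the genes in the other. For this, the a sisters alone, or the b sisters alone, of each plate were divided into 4 parts. High and low therefore differ here from the groups above. When sister a was high (13 embryos), sister b held 237 to 590 CPM of Zscan4 (median 377). When sister a was low (13 embryos), sister b held 7.82 to 308 CPM (median 154). No gene of sister b out of 8961 was called by edgeR (percent called 0; 152 higher and 135 lower at an unadjusted p under 0.05, and 10 and 6 called by DESeq2). As above, the unadjusted numbers are by themselves no sign of a difference. The smallest p belonged to Gm21319 (3.89 ± 0.78), Gm5662 (1.10 ± 0.23) and Usp17la (2.23 ± 0.47), each with an edgeR adjusted p of 0.097, followed by Gm5039 (1.40 ± 0.32, edgeR adjusted p = 0.226) and Tmem229b (-2.56 ± 0.59, edgeR adjusted p = 0.227). Zscan4d had 1.23 ± 0.31 (edgeR adjusted p = 0.327).

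In the opposite direction, with sister a read and sister b used for grouping, edgeR called 5 genes higher and 10 lower of 8901 (0.0562% and 0.112%). Sister a held 255 to 621 CPM of Zscan4 (median 331) when sister b was high and 20.02 to 310 CPM (median 101.6) when it was low. Zscan4d was itself among the 5 (1.65 ± 0.36, edgeR adjusted p = 0.0391). Gm5662 was higher again (1.08 ± 0.22, edgeR adjusted p = 0.0369), as was 4931428L18Rik (0.98 ± 0.19, edgeR adjusted p = 0.031). The lowest p belonged to Prpf4b (-1.55 ± 0.24, edgeR adjusted p = 0.002), a splicing-related kinase gene, and Tmem50b (-1.59 ± 0.29, edgeR adjusted p = 0.0204), and the transcription factor Klf9 (-3.43 ± 0.67, edgeR adjusted p = 0.031) and Anp32b (-0.70 ± 0.15, edgeR adjusted p = 0.0391) were also lower. The 2 directions use different libraries for the genes, of the same embryos.

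Within embryos, the sister with more Zscan4 was set against the sister with less, with embryo as a block, which removes site and plate. Of 9803 genes, 270 passed (2.75%; edgeR). Of these, 154 were higher in the richer sister (1.57% of the genes tested) and the rest lower (1.18%), with median changes among the called genes of 0.29 and 0.25 on the log2 scale. Cenpn was higher in the richer sister in 45 of 55 embryos (0.31 ± 0.04, edgeR adjusted p = 2.26e-05), Tipin, of the replication fork protection complex, had 0.29 ± 0.05, and A730082K24Rik was higher in 43 of 55 embryos (0.39 ± 0.06). Zfp91 was lower in the richer sister (-0.42 ± 0.07) and higher there in 15 of 55 embryos, and Gm42418 was lower too (-0.57 ± 0.10). Gm2016 was higher in the richer sister in 42 of 55 embryos (0.40, edgeR adjusted p = 0.0092), and Eif2s1 in 43 (0.62, edgeR adjusted p = 0.00081). Gm5662 (0.21, edgeR adjusted p = 0.143) and Rfpl4b (0.13, edgeR adjusted p = 0.773) did not pass within embryos. Nor did Gm5039, Gm8300 and Gm21319 (edgeR adjusted p = 0.0797, 0.169 and 0.92). Of 32 genes of the 2-cell activation list 1 was higher and 0 lower, with a median log2 fold of 0.07. Of the 7 Obox genes 3 were higher and 0 lower, with a median of 0.25.

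The richer sister had the higher total count in 26 of 55 embryos, more counted genes in 29, the larger mitochondrial share in 35 and the higher mean GC in 17. Genes called higher had a median GC of 43.3% and those called lower 52.2%. With depth, counted genes and mitochondrial share as terms, 3 genes were higher and 4 lower. With the GC term no gene passed in edgeR (280 higher and 228 lower at an unadjusted p under 0.05), a term that is computed from the same counts. The unadjusted numbers are here too by themselves no sign of a difference.

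The promoters of the genes that were higher were searched for the same letters. Of 258 genes 192 had a promoter in the RefSeq table, and of 270 lower genes 221. TGATTCAA was found in 1 of the 192 (0.521%), in 3 of the 221 promoters of lower genes (1.36%) and in 0.46% of the promoters of genes tested. TATAA was found in 18.2% of the promoters of higher genes, in 10.4% of those of lower genes and in 12.4% of those tested. TGCACAC, the known core of the Zscan4 protein's own site, was found in 1 of 192 (0.521%), in 3.62% of the promoters of lower genes and in 3.09% of those tested. GGATTA, the core known for CRX-like homeodomains, was found in 8.33%, in 2.26% of the lower genes and in 5.36% of those tested. The median GC of these promoters was 58.4% for higher, 63.2% for lower and 60% for tested genes. Both strands were searched. TGATTCAA and GGATTA share the letters GATT, and neither lies within the other.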

How the data were processed

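Single blastomeres were lysed and their RNA turned into full-length cDNA (SMART-Seq Single Cell Kit, Nextera XT, NovaSeq). The authors trimmed reads with Trimmomatic, aligned them with STAR 2.7.10b without strand to GRCm38 with GENCODE M23, and deposited whole-number counts per gene (32285 genes), without molecular identifiers, so counts are not independent molecules. CPM was computed here on total counts. Plate, site and sister came from the labels, and 0 columns were left unmapped. Gene length, GC and positions came from GENCODE M21. Members, lists and tests were chosen with earlier results of these data known. Sister libraries come from separate cells of 55 embryos. The p-values of comparisons between embryos are set against the spread between embryos, and those within embryos against the spread of the sister differences.

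Gene comparisons used edgeR 4.0.16 in R 4.3.3 (TMM, filterByExpr, robust quasi-likelihood, Benjamini-Hochberg, threshold 0.05), with DESeq2 1.42.0 and limma 3.58.1 as alternatives. The edgeR fit was tested on simulated data. These held no separate effects of embryo, site or GC, so the test cannot speak to such effects. SE is the log2 fold divided by the root of F. Single values used 100000 permutations (Python 3.11.15, scipy 1.17.1). Genes named are the 15 with the smallest adjusted p in each direction, up to 4 called members of each list, the 5 with the smallest p in the other comparisons, and a few chosen after their values were seen: the chromosome 12 genes, further called or well-known list members, and Usp17la. The variance behind each SE holds counting noise as well as the spread between embryos. In the comparison within embryos it holds the spread of the sister differences in place of the latter. The blastocyst files and the second, sparse matrix of the blastomeres were not used here. Results for a few list members are not reported here.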

Additional observations from a re-analysis of the deposited data

How the results depend on the processing

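Of 528 genes called between Zscan4-high and Zscan4-low embryos (258 higher), the number was 1145 without a filter on low counts (543 higher), 1909 without the ICSI group (990), 824 with DESeq2 (383), 145 with depth, counted genes and mitochondrial share (66), 14 with mean GC content (6), 853 with a mitochondrial share under 0.02 (415) and 1046 with a continuous level (567). It was 211 with 3 parts of a plate (100), 10 with 2 parts (10) and 255 by Zscan4d alone. Single blastomeres with embryo as a replicate block (limma voom) gave 919 (517). In sister b by sister a, where edgeR called none, a continuous level called 8, leaving out the ICSI group 6 and DESeq2 16. In sister a by sister b, with 15 calls, the same alternatives gave 77, 801 and 149. Within embryos, with 270 calls and embryo already a block, depth terms gave 7, plate 1 alone 73, mean GC content 0 and limma voom 442. The DESeq2 fit of that comparison was not run. The sister correlation was weaker in plate 2 (r = 0.504) and in equatorial embryos (r = 0.391). Without equatorial embryos, high embryos exceeded low ones by 213423 counts, 436 counted genes and a mitochondrial share of 0.202 percentage points, none past the threshold (adjusted permutation p = 0.0546, 0.0546 and 0.224). Except where a value or the setting itself shows it, the cause was not tested. Of 1345 refits of the named calls, 1017 were called again, 327 kept only their direction and 1 reversed (mt-Atp8 with mean GC content, -0.21). The named calls were mostly picked for a small p, and most refits use largely the same libraries. Many repeats are therefore built in, and the settings differed. With mean GC content 9 were called again and 99 kept only their direction. These numbers were 9 and 65 with 2 parts of a plate, 51 and 58 with depth terms, and 81 and 0 with DESeq2. The GC term was chosen after seeing the data, as were the fits without equatorial embryos, the voom fit within embryos and re-pairing within site. No sample stood far from its group in Zscan4 level or mean GC in the 10 small groups checked. The Zscan4-high and Zscan4-low blastomeres of plate 1 (21 each), the middle blastomeres and the 11 contralateral Zscan4-high embryos were not checked. Zscan4-low libraries rest on 7 to 286 Zscan4 counts each, which limits the precision of their order.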
